A study of Rattus norvegicus with 24 samples.

Results

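Synaptic vesicle cycle genes encode the proteins that fill, dock, fuse and recover the vesicles from which neurons release transmitter. Their expression was examined by RNA-seq in the striatum, the brain region where basal ganglia circuits receive cortical input and a main target of dopamine, and in whisker follicles, the large hair follicles of the snout. The 39 members were the rows of the deposited gene table that carry the symbol of a listed gene, and each of the 39 was found in 1 row of 17711. They were split by known role into 18 exocytosis genes, 7 vesicle protein genes, 6 endocytic accessory genes and 8 genes of clathrin and its adaptor AP-2. The libraries came from male Sprague-Dawley rats that self-administered methamphetamine (MA rats) or saline (SA rats) through an intravenous catheter, with 6 libraries per treatment in each of the 2 tissues and 24 in all. All rats, SA rats included, had first been trained to press a lever for food pellets, and only those that learned entered the experiment. The striatum and the whisker follicles were taken from the same rats. Their age is not given in the sources used here. Both are bulk tissues, and the follicles hold hair shaft, epithelium, dermal cells and nerve endings together.

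In neurons, a transmitter-filled vesicle docks at the active zone, is primed, and fuses when calcium binds synaptotagmin and the SNARE proteins of vesicle and plasma membrane zip together. NSF and its SNAP adaptors then pull the SNARE complex apart. The vesicle membrane is recovered by endocytosis, in which AP-2 selects cargo and recruits clathrin, dynamin cuts the bud free and synaptojanin helps to shed the coat. Much of the release machinery is made mainly in neurons and neuroendocrine cells, whereas clathrin and AP-2 serve receptor uptake in most animal cells.

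Levels are given as FPKM, a fragment number divided by the length of the transcript and by the mapped fragments of the library, which allows genes to be compared per length within a library. FPKM carries no read counts, so the depth behind each value is unknown and the spread between libraries is the only error given. Libraries are named by the index of 0 to 5 in their column names. The FPKM of a library summed to 348720 to 418890 in the striatum and 774570 to 1524600 in the whisker follicle, so the totals differed between the tissues. The medium spiny neuron gene Ppp1r1b was at 917 to 2528 FPKM in all 12 striatum libraries, and the hair keratin gene Krt86 at 8437 to 42431 FPKM in the follicle and at most 10.6 in the striatum, as the tissue labels say. Of 2 Merkel cell markers, Atoh1 was listed at 0 in all 12 follicle libraries and Krt20 ran from 0 to 0.955 FPKM there. The 8 genes found of 10 listed for Merkel and neuroendocrine cells gave higher sums. They summed to 35.7 to 71.4 FPKM in SA and 23.99 to 79.4 in MA follicle libraries, and 1 of them had a follicle mean of at least 1 FPKM. In the striatum of SA rats the same genes summed to 266 to 371 FPKM. These values do not decide whether Merkel cells were present. Follicle SA library 0 had the lowest mean correlation with its group (0.952, against 0.975 to 0.990 for the other 11 follicle libraries). In the striatum, SA library 4 and MA library 5 had the lowest Ppp1r1b (979 and 917 FPKM) and the highest Calb2, a gene of thalamic and interneuron types (43.6 and 18.4 FPKM against 2.23 to 9.58 in the other 10). Striatum MA library 4 had the highest Mbp, a myelin gene (11551 FPKM), and the lowest value for 22 of the 39 members. Striatum MA library 3 had the highest Hbb, a hemoglobin gene, of the 12 striatum libraries (1917 FPKM). Results that rest on these libraries are given with and without them.

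All 39 members had a mean of at least 1 FPKM in the striatum, from 1.01 for Unc13b to 460 for Vamp2 over its 12 libraries. Among SA rats the SNARE genes led the order: Vamp2, the vesicle SNARE synaptobrevin, was at 459 ± 42.4 FPKM (SD, n = 6) and Snap25, its partner on the plasma membrane, at 403 ± 87.4. Ap2m1, the AP-2 subunit that binds cargo motifs, followed at 391 ± 29.7 FPKM. Rab3a, a small GTPase on vesicles, was at 374 ± 49.5 FPKM and Cplx1, a complexin that clamps the SNARE complex, at 359 ± 39.9. Each of these neighbours differed by less than the spread between libraries, so their order is not fixed. A step followed, down to the vesicle membrane protein gene Syp (231 ± 62.0 FPKM), and from Syp through Nsf, Cplx2, Dnm1 and Napa (170 ± 21.3) neighbours again lay within their spread. Cltb, Clta, Ap2s1 and Syt11 had means between 142 and 149 FPKM.

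Within a class, single paralogs led. Of the calcium sensor genes, Syt11 (142 ± 32.1 FPKM) and Syt1 (94.7 ± 23.4) exceeded Syt4 (44.7 ± 7.29) and Syt2 (12.7 ± 5.80); synaptotagmin-1 is the fast calcium sensor of the forebrain, whereas synaptotagmin-11 and synaptotagmin-4 lack normal calcium binding in part or whole. Of the priming genes, Unc13a, which encodes the main Munc13 of the brain, was at 19.8 ± 7.04 FPKM and Unc13b at 1.08 ± 0.148. Dnm1, the neuronal dynamin, was at 186 ± 26.3 FPKM and Dnm3 at 14.9 ± 2.56. Amph, which encodes the membrane-bending protein amphiphysin, was at 2.37 ± 0.574 FPKM, the second lowest of the 39. Cplx2 and Rab3b varied widely between SA libraries: Cplx2 ranged from 91.8 FPKM in SA library 4 to 255 in SA library 1, and Rab3b from 33.6 in SA library 5 to 105 in SA library 4.

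**Figure D1:**
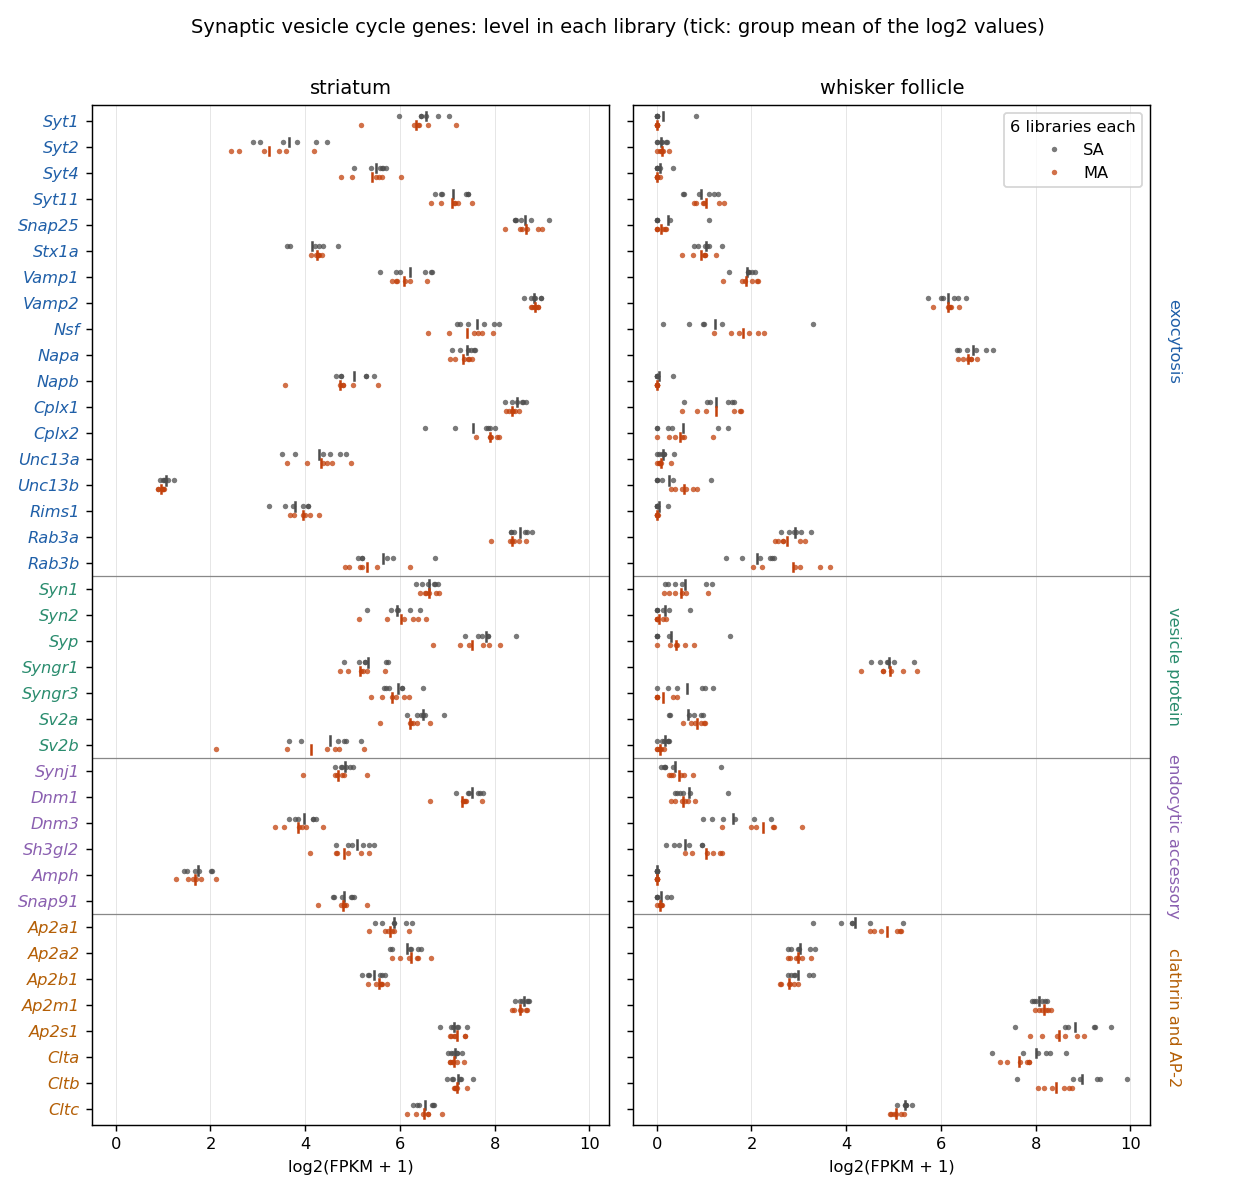
Level of each of the 39 genes in each of the 24 libraries, as log2(FPKM + 1), in the striatum (left) and the whisker follicle (right). Grey points are SA and orange points MA libraries, 6 each, and a tick is the mean of a group. All 39 genes were measured in the striatum, Unc13b and Amph at low levels, whereas most exocytosis, vesicle protein and endocytic accessory genes lay near 0 in the follicle and the 8 clathrin and AP-2 genes did not.

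In the whisker follicle, 18 of the 39 members had a mean of at least 1 FPKM over the 12 libraries. These were 8 of 8 clathrin and AP-2 genes, 8 of 18 exocytosis genes (Syt11, Vamp1, Vamp2, Nsf, Napa, Cplx1, Rab3a and Rab3b), 1 of 7 vesicle protein genes (Syngr1) and 1 of 6 endocytic accessory genes (Dnm3). The order among SA rats was led by the coat: Cltb, a clathrin light chain, was at 564 ± 260 FPKM, Ap2s1, the small subunit of AP-2, at 496 ± 206, and Ap2m1 and Clta, the other light chain, both at 270 (SD 24.1 and 90.5). Cltb and Ap2s1 differed by less than their spread, and so did Ap2m1 and Clta. Napa, which encodes the SNAP adaptor found in most cells, was at 103 ± 23.0 FPKM and Vamp2 at 71.6 ± 14.1. Below these came Cltc, the clathrin heavy chain (37.1 ± 2.67), Syngr1 (29.6 ± 7.01), Ap2a1 (18.9 ± 9.28), Ap2a2 (7.23 ± 1.28), Ap2b1 (7.01 ± 1.25) and Rab3a (6.67 ± 1.15 FPKM). Amph was listed at 0 in all 12 follicle libraries.

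The question of the tissue comparison was which steps of the vesicle cycle differ in RNA level between brain and follicle. Genes were compared on log2(FPKM + 1) by limma with Benjamini-Hochberg adjustment over all rows tested, and a gene was called where the adjusted p was under 0.05 and the fold at least 1.5. Among SA rats 43.6% of all 11509 rows were called higher in the striatum and 31.5% lower. Of the 18 members with a mean of at least 1 in both tissues, 13 were called higher in the striatum, 3 lower and 2 were not called. The shares of all rows are over rows with a mean of at least 1 in either tissue. They are therefore not a like background for these 18, and no share was computed over rows passing in both tissues. Fewer cells of a type and less RNA per cell cannot be told apart in bulk tissue. The other 21 members entered this test only through their striatum level, and all 21 were higher there, which the filter on low values makes likely by itself.

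The exocytosis genes detected in both tissues spanned a wide range of differences. Cplx1 was 7.24 log2 units higher in the striatum (SE 0.17, adjusted p = 7.52e-14 by limma), Nsf 6.39 (SE 0.41), Syt11 6.19 (SE 0.18) and Rab3a 5.61 (SE 0.12). Vamp1 was 4.32 (SE 0.19) and Rab3b 3.51 (SE 0.27) log2 units higher. The smallest differences of this group were those of Vamp2, at 2.68 log2 units (SE 0.14, 6.41-fold), and Napa, at 0.73 (SE 0.15, 1.66-fold, adjusted p = 4.18e-04). Each of these 8 genes was also called higher in the striatum among MA rats, whose libraries are separate (Cplx1 7.12, Nsf 5.61, Vamp2 2.70 and Napa 0.76 log2 units). With a common median Napa was not called, at 0.26 in SA and 0.33 in MA rats. Among the members with a mean of at least 1 FPKM in the striatum only, Snap25 (8.40 log2 units), Syp (7.52) and Cplx2 (6.99) had the largest values in SA rats. Unc13b (0.79) and Amph (1.74) had the smallest. Unc13b averaged 0.382 FPKM over the 12 follicle libraries. It was not called in SA rats with a common median (0.31) or with quantile normalization (0.04). Of the vesicle protein genes, Syngr1, which encodes synaptogyrin-1, was at 27.3 to 52.7 FPKM in the striatum and 21.99 to 42.4 in the follicle of SA rats, and the ranges overlapped. Its difference of 0.42 log2 units (SE 0.18, adjusted p = 0.0414) was under 1.5-fold, and with a common median in every library it was -0.06 in SA and -0.18 in MA rats. With a common sum it was called higher, at 2.17 in SA and 1.73 in MA rats, and with quantile normalization in SA rats only (0.65, and 0.38 in MA rats).

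The 8 clathrin and AP-2 genes split in direction. Ap2a2 was 3.12 log2 units higher in the striatum of SA rats (SE 0.14), Ap2b1 2.47 (SE 0.12), Ap2a1 1.67 (SE 0.26) and Cltc 1.27 (SE 0.11). Cltb, Ap2s1 and Clta were lower there by limma: Cltb at -1.77 log2 units (SE 0.30, 3.40-fold, adjusted p = 8.28e-05), Ap2s1 at -1.68 (SE 0.28, adjusted p = 6.62e-05) and Clta at -0.85 (SE 0.21, adjusted p = 0.00195), and these directions depended on how libraries were scaled. With each library scaled to a common sum, Cltb was 0.01 and Ap2s1 0.10 log2 units higher in the striatum, neither called, and Clta 0.93 higher and called, while quantile normalization left Clta at 0.11, not called, and kept the other 2 lower. Ap2m1 was 0.54 log2 units higher in the striatum of SA rats (adjusted p = 4.33e-04), under the fold of 1.5, and 0.37 higher in MA rats. A common median put it at 0.06 in SA and -0.06 in MA rats, whereas it was called higher with a common sum (2.31 in SA and 1.88 in MA rats) and with quantile normalization (1.83 and 1.35).

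The scaling moved all genes, not these alone. The median difference of all rows tested was 0.30 log2 units in SA and 0.26 in MA rats with FPKM as deposited, 1.74 and 1.53 with a common sum, and -0.18 and -0.16 with a common median. Calls over all rows went with it: with a common sum 76.1% of rows were called higher in the striatum of SA rats and 11.5% lower. Relative to the median of all rows, Cltb was at -2.06 log2 units with FPKM as deposited and -1.73 with a common sum, Ap2s1 at -1.97 and -1.64, and Clta at -1.15 and -0.81, so that all 3 stood below the median row under both scalings. With quantile normalization Cltb and Ap2s1 were at -0.55 and -0.53 relative to the median row and Clta at 0.18. In MA rats, where 42.5% of all rows were called higher and 30.8% lower, Cltb (-1.23 log2 units, SE 0.13) and Ap2s1 (-1.29, SE 0.17) were called lower and Clta (-0.49, adjusted p = 0.0012) missed the fold of 1.5. With a common sum their values in MA rats were 0.29, 0.22 and 1.02 log2 units.

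A ratio of 2 genes within a library does not depend on its scaling. The light chain to heavy chain ratio Cltb to Cltc had a median of 1.61 (1.21 to 2.25) in the striatum of SA rats and 15.1 (4.68 to 26.1) in the follicle. Clta to Cltc had medians of 1.52 and 7.81, and the follicle range of 3.27 to 10.7 did not reach that of the striatum. Clathrin is assembled from 1 light chain per heavy chain, so these ratios describe RNA and not the assembled coat. Within AP-2, the ratio of the small subunit gene Ap2s1 to the large subunit gene Ap2b1 had a median of 2.99 in the striatum and 74.7 (32.2 to 94.5) in the follicle, and Ap2s1 to Ap2m1 medians of 0.373 and 1.83.

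Paralog use differed as well. The 2 alpha subunits of AP-2 are encoded by Ap2a1 and Ap2a2. Of their summed FPKM, Ap2a2 made up 54.9% in the striatum of SA rats and 30.1% in the follicle, and 58.0% and 19.7% in MA rats. Follicle SA library 5 was at 50.6%, and without it the follicle share in SA rats was 26.0%. Of the 2 light chains, Clta made up 48.9% of their sum in the striatum and 33.7% in the follicle of SA rats.

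**Figure D2:**
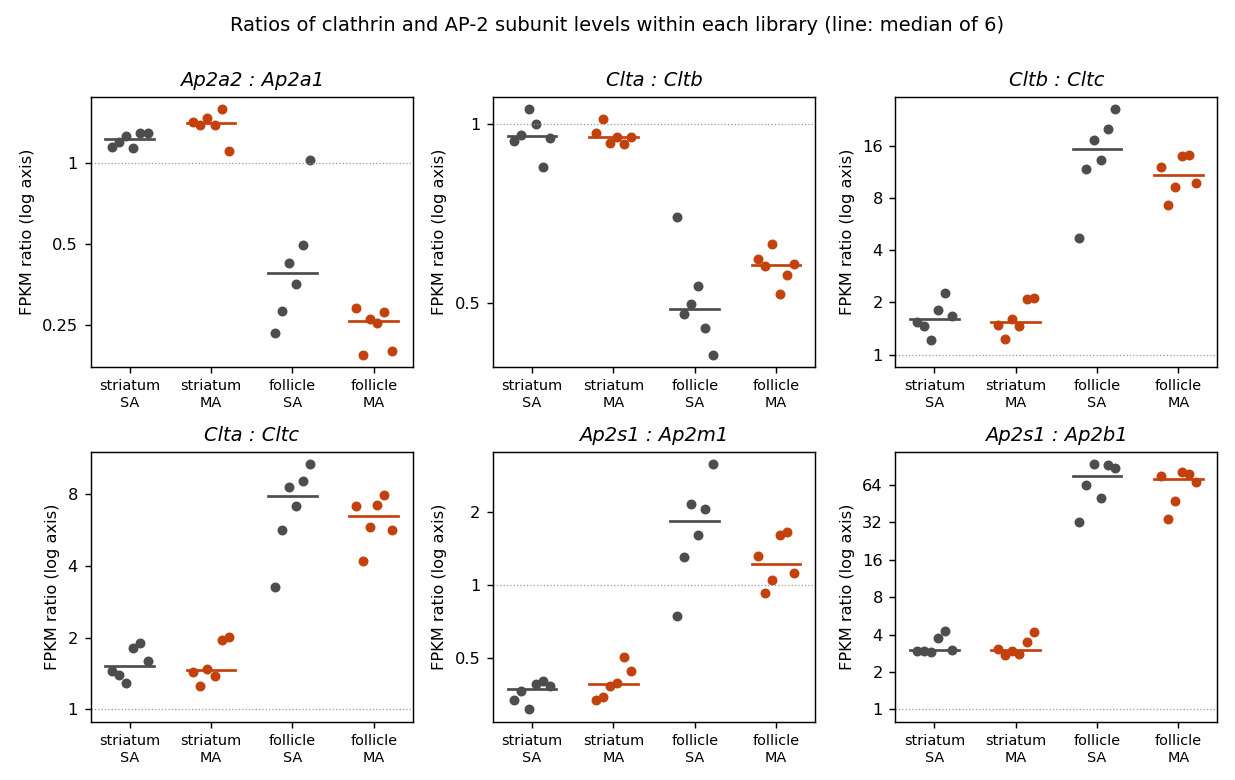
Ratio of the FPKM of 2 clathrin or AP-2 genes within each library, on log axes, for the 4 groups of 6 libraries, with a line at the median. In every panel the striatum libraries lie close together and the follicle libraries of both treatments lie on 1 side of them, above for the 4 ratios of light chain to heavy chain and of Ap2s1 to other subunits, and below for Ap2a2 to Ap2a1 and Clta to Cltb.

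The same comparison was made for vesicle cycle genes and the relative that other cells use for a like step. In all, 19 pairs were compared, the 6 coat ratios included, as the share of the first gene in the summed FPKM of both, and in each of the 19 the striatum and follicle libraries did not overlap, in SA and in MA rats. The pairs were chosen with the level of these genes known, and those whose first gene was measured almost only in the striatum had to differ, so the shares are a description with no test. Snap25 made up 98.7% of the sum with its ubiquitous relative Snap23 in the striatum of SA rats and 1.67% in the follicle (8.66% in SA library 5 and 0.271% over the other 5 SA libraries). Dnm1 made up 88.7% of the sum with Dnm2 in the striatum and 4.35% in the follicle (2.62% without SA library 5). Sh3gl2, the brain endophilin, made up 60.2% and 1.17% of the sum with Sh3gl1, and Syp 89.7% and 2.62% of the sum with Sypl1. The follicle value of Syp rested on SA library 5, at 15.1% there and 0.12% over the other 5 SA libraries.

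Syngr1 made up 67.0% of the sum with Syngr2 in the striatum and 35.0% in the follicle, and Vamp2 92.8% and 35.2% of the sum with Vamp3, a vesicle SNARE of most cells. With Vamp8, a SNARE of secretory and endosomal membranes in epithelia, the share of Vamp2 was 94.9% and 7.58%. Snap91, the neuronal clathrin assembly protein, made up 47.4% of the sum with its relative Picalm in the striatum and 6.24% in the follicle, where SA library 5 was at 36.9% and the other 5 SA libraries averaged 0.106%. In SA library 5 both genes were near 0, Snap91 at 0.239 and Picalm at 0.408 FPKM, the lowest Picalm of all follicle libraries. Outside the members, Atp6v1g2, the neuronal G subunit of the vacuolar proton pump that drives vesicle filling, made up 58.9% of the sum with Atp6v1g1 in the striatum and 0.0444% in the follicle (0.0111% without SA library 5).

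Members that were low in the follicle were most often highest in the same library. Of the 21 members with a follicle mean under 1 FPKM, SA library 5 had the highest value for 13, and their summed FPKM was 14.0 there against 4.19 to 9.05 in the other 11 libraries. Snap25 was at 1.16, Syp at 1.93, Dnm1 at 1.84 and Syt1 at 0.778 FPKM in that library, and Syt1 was listed at 0 in the other 11. The same library held striatal transcripts. The median level of 12 medium spiny neuron genes was 0.522% of their striatum mean there and 0 to 0.0906% in the other 11, and that of 11 oligodendrocyte genes 0.751% against 0 to 0.0838%. Penk, the enkephalin gene, was at 6.43 FPKM and Mbp at 49.9 in SA library 5, and the neuronal nuclear gene Rbfox3 at 0.399. The median over the 21 members was 0.912% of the striatum mean in that library and 0 to 0.324% in the other 11. The part of these transcripts in the members' values was not tested.

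**Figure D3:**
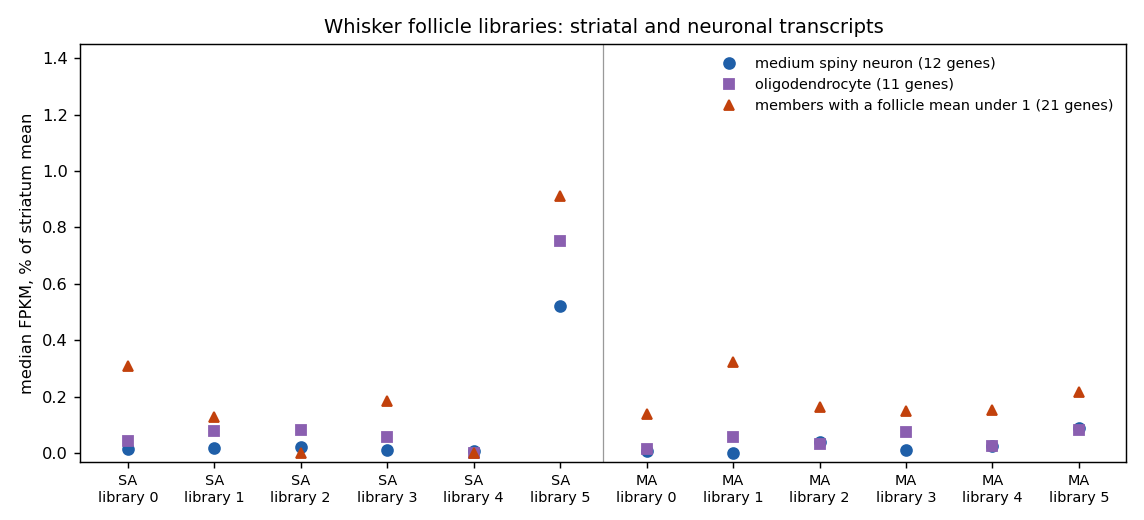
Median level of 3 gene lists in each whisker follicle library, as a percentage of the mean of each gene over the 12 striatum libraries: 12 medium spiny neuron genes (circles), 11 oligodendrocyte genes (squares) and the 21 vesicle cycle genes with a follicle mean under 1 FPKM (triangles). In SA library 5 the 3 medians are 0.522%, 0.751% and 0.912%, and in the other 11 libraries none exceeds 0.324%.

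Promoter sequences from RefSeq (build GRCr8, from 250 bases before to 50 after the gene start) were at hand for 35 of the 39 genes, all but Snap25, Snap91, Syngr1 and Syngr3. The full cAMP response element TGACGTCA, the site of CREB and related factors, occurred in 6 of the 35 windows (17.1%), searched on both strands. It occurred in 1.83% of all 33469 rat promoters of the same length and in 2.10% of the 21851 promoters of coding genes, the closer background for these members. These 6 windows came from every arm of the cycle and are shown because the element is the motif searched that was most over its background share. The motif is in capitals within 28 bases of the plus strand of chr10:68600651-68600678, chr17:10006603-10006630, chr1:85915366-85915393, chr5:104699194-104699221, chrX:3725545-3725572 and chr4:159698813-159698840, in this order.
Ap2b1: cgcacccggaTGACGTCAggcggcgaga
Cltb: cctcggccgcTGACGTCAccacattccc
Napa: cagacccgggTGACGTCAacgtagcggg
Sh3gl2: tcacccgcccTGACGTCAgggtgtctct
Syn1: aaaggcgggcTGACGTCActctccagcc
Vamp1: ctggagatttTGACGTCAtccacgaggc

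The element lay 59 to 102 bases before the gene start in 5 of these genes and 190 bases before it in Syn1. The shorter core TGACGT, which the full element contains, was in 8 windows (22.9%, against 7.94% of all promoters), with Rab3a and Vamp2 added to the 6. The GC box GGGCGG was in 26 windows (74.3% against 33.1%), CCAAT in 13 (37.1% against 37.5%) and the core of the NRF1 motif in 4 (11.4% against 4.25%), those of Ap2m1, Dnm3, Nsf and Syp. TATAAA was in none of the 35, against 14.2% of all promoters. Parts of the RE1 element, through which REST silences neuronal genes outside the brain, were found in Unc13a (the left part, TTCAGCACC) and Napb (the right part) (2.86% of the 35 each, against 0.356% and 0.454%). These are matches of letters and not sites of binding. The 6 genes with the full element differed in how they were expressed: Syn1 and Sh3gl2 had follicle means under 1 FPKM, Napa was within 1.66-fold between the tissues of SA rats, and Cltb was higher in the follicle with FPKM as deposited but not with a common sum.

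Methamphetamine releases dopamine from the terminals that fill the striatum, and MA and SA rats were compared to see which transcripts differ after self-administration. In the striatum none of the 39 members was called, and none had an unadjusted p under 0.05 by limma. Over all 10607 rows tested, 1 was called (0.00943%) and 876 had an unadjusted p under 0.05 (8.26%). The lowest adjusted p of a member was 0.661. Of the 39, 28 had a value below 0 (lower in MA rats) and 11 above, with a median of -0.09 log2 units beside 0.00 over all rows. The medians were -0.09 for the 18 exocytosis genes, -0.16 for the 7 vesicle protein genes, -0.13 for the 6 endocytic accessory genes and -0.01 for the 8 clathrin and AP-2 genes. These genes share the libraries, so the signs are not independent of each other. Marker genes of cell types went both ways. Above 0 were 10 of 10 microglia and macrophage genes (median 0.46 log2 units) and 9 of 10 astrocyte genes (median 0.37). Of these astrocyte genes, 6 had an unadjusted p under 0.05 by limma. Of 12 general neuron genes 10 were below 0 (median -0.21). But 8 of 12 medium spiny neuron genes (median 0.03) and 4 of 6 cortical excitatory neuron genes (median 0.14) were above 0. Among oligodendrocyte genes, 3 of 11 were above 0 (median -0.24). Their part in the members' values was not tested. With each single library left out, the medians of the exocytosis, vesicle protein and endocytic accessory genes stayed below 0 (highest -0.02, -0.07 and -0.01). That of the clathrin and AP-2 genes ran from -0.03 to 0.03. Leaving out pairs of libraries was added after seeing the data. Without MA libraries 3 and 4 the split turned, to 17 below and 22 above 0 with a median of 0.02. Without SA library 4 and MA library 5 it was 25 and 14 with a median of -0.06. No member was called by limma in either case (lowest adjusted p 1.00 and 0.756).

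The members with the smallest p in the striatum showed overlapping groups. Sv2a, which encodes a transporter-like glycoprotein of all vesicles, was at 86.7, 89.01, 91.5, 81.8, 122 and 70.4 FPKM in SA libraries 0 to 5 and 73.6, 99.1, 74.8, 76.03, 46.8 and 80.9 FPKM in MA libraries 0 to 5. The lowest value was that of MA library 4 and the highest that of SA library 4, both libraries named above. Its difference was -0.27 log2 units (95% interval -0.62 to 0.08, unadjusted p = 0.116 by limma).

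Cplx2, the second complexin, was at 240.2, 255, 226, 143, 91.8 and 231 FPKM in SA libraries 0 to 5 and 238, 243, 265, 238, 271 and 193 FPKM in MA libraries 0 to 5. SA libraries 3 and 4 were low and the other 10 lay between 193 and 271 FPKM, and the difference was 0.36 log2 units (-0.12 to 0.84, unadjusted p = 0.127 by limma). With each library left out in turn, its value ranged from 0.16 to 0.45.

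Sh3gl2, the endophilin that bends the neck of the endocytic bud, was at 28.8, 39.9, 36.05, 30.98, 43.1 and 24.04 FPKM in SA libraries 0 to 5 and 24.3, 35.2, 24.4, 29.1, 16.1 and 39.9 FPKM in MA libraries 0 to 5. Dnm1 was at 206, 216, 175, 145, 199 and 172 FPKM in SA libraries 0 to 5 and 167, 213, 163, 161, 97.8 and 166 FPKM in MA libraries 0 to 5. In both genes MA library 4 was lowest and the other 5 MA libraries lay within the range of SA. The differences were -0.28 and -0.23 log2 units (unadjusted p = 0.175 and 0.179 by limma).

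Rab3a was at 401, 409, 341, 325, 441 and 326 FPKM in SA libraries 0 to 5 and 342, 406, 327, 322, 243 and 363 FPKM in MA libraries 0 to 5. Syp, whose product synaptophysin is an abundant vesicle membrane protein, was at 213, 230.2, 231, 201, 348 and 166 FPKM in SA libraries 0 to 5 and 214, 235, 176, 153, 103 and 276 FPKM in MA libraries 0 to 5. SA library 4 was highest and MA library 4 lowest in both. The differences were -0.17 log2 units for Rab3a (unadjusted p = 0.198 by limma) and -0.29 for Syp (unadjusted p = 0.215).

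Syt2, the fast calcium sensor of hindbrain and some interneuron synapses, was at 17.8, 13.1, 20.98, 10.6, 7.23 and 6.44 FPKM in SA libraries 0 to 5 and 7.77, 11.1, 9.84, 17.2, 4.43 and 5.10 FPKM in MA libraries 0 to 5. Its libraries spread over nearly the whole range in either group, and the interval of its difference was wide (-0.43 log2 units, -1.13 to 0.27, unadjusted p = 0.209 by limma). Rims1, an active zone scaffold, was at 14.6, 15.8, 15.7, 12.4, 8.44 and 10.97 FPKM in SA libraries 0 to 5 and 11.9, 14.4, 14.9, 16.2, 18.7 and 12.5 FPKM in MA libraries 0 to 5. SA library 4 was the lowest and MA library 4 the highest for Rims1, the reverse of Syp, and the difference was 0.19 log2 units (unadjusted p = 0.229 by limma).

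Ap2a1, which the study named in the follicle of these rats, and Cltb are given beside these. In the striatum Ap2a1 was at 74.9, 68.9, 58.1, 48.05, 43.4 and 57.5 FPKM in SA libraries 0 to 5 and 57.6, 72.5, 56.3, 52.4, 39.9 and 50.8 FPKM in MA libraries 0 to 5. Cltb was at 156, 153, 126, 138, 187 and 136 FPKM in SA libraries 0 to 5 and 143, 145, 142, 139, 146 and 170.0 FPKM in MA libraries 0 to 5. The groups overlapped for both, and the differences were -0.09 log2 units for Ap2a1 (-0.41 to 0.24, unadjusted p = 0.581 by limma) and -0.01 for Cltb (-0.21 to 0.20, unadjusted p = 0.947). Some intervals were narrow: that of Vamp2 ran from -0.16 to 0.18 and that of Clta from -0.17 to 0.16, which lie inside a 1.5-fold change in either direction. The widest was that of Sv2b, a gene with 3.32 FPKM in MA library 5 and 11.3 to 37.0 in the other 11 libraries.

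**Figure D4:**
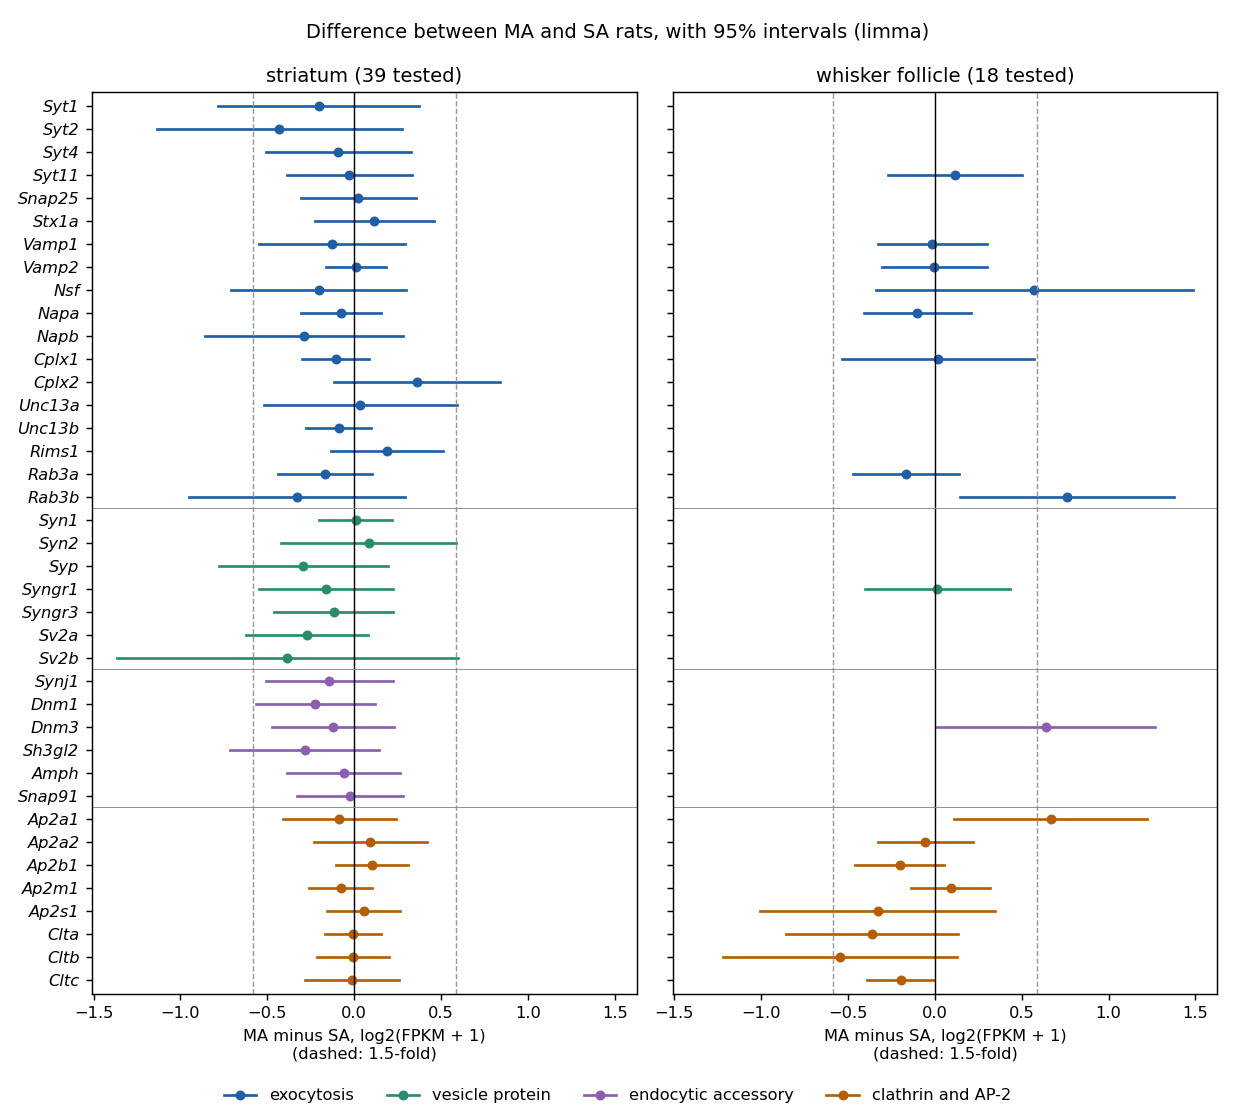
Difference between MA and SA rats for each gene tested, as log2 units with its 95% interval from limma, in the striatum (39 genes) and the whisker follicle (18 genes), coloured by arm, with dashed lines at a 1.5-fold change. In the striatum all 39 intervals include 0, and in the follicle those of Rab3b, Ap2a1, Dnm3 and Cltc do not, before adjustment for the number of rows.

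In the whisker follicle, 18 members could be compared between MA and SA rats and none was called with all 12 libraries. Over all 9138 rows 0 were called (0.0%) by limma, and 953 had an unadjusted p under 0.05 (10.4%). Among the 18 members 4 had an unadjusted p under 0.05: Rab3b, Ap2a1 and Dnm3 with higher values in MA rats and Cltc with a lower one. The lowest adjusted p of a member was 0.465. The median over the 8 exocytosis genes tested was 0.01 log2 units and that over the 8 clathrin and AP-2 genes -0.20, beside -0.01 over all rows. Scaled to a common sum, the clathrin and AP-2 median was -0.04 and that of all rows 0.14.

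Rab3b, a relative of Rab3a found on vesicles of neurons and endocrine cells, was at 4.60, 2.47, 4.36, 4.26, 1.77 and 3.54 FPKM in SA libraries 0 to 5 and 3.67, 9.97, 6.52, 7.18, 11.7 and 3.07 FPKM in MA libraries 0 to 5. In MA libraries 1, 2, 3 and 4 it lay above all 6 SA libraries, and MA libraries 0 and 5 lay among them. The difference was 0.76 log2 units (0.14 to 1.38, unadjusted p = 0.0195 by limma). Dnm3 was at 4.33, 0.970, 3.13, 2.14, 1.62 and 1.25 FPKM in SA libraries 0 to 5 and 2.99, 7.39, 4.58, 3.29, 4.45 and 1.61 FPKM in MA libraries 0 to 5, with groups that overlapped (0.64 log2 units, 0.01 to 1.27, unadjusted p = 0.0477).

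Ap2a1, the alpha-A subunit of AP-2, was at 35.8, 21.8, 16.5, 16.4, 13.9 and 8.90 FPKM in SA libraries 0 to 5 and 25.5, 34.1, 32.8, 22.9, 21.5 and 34.5 FPKM in MA libraries 0 to 5. The MA libraries lay between 21.5 and 34.5 FPKM and 4 of the 6 SA libraries below all of them, whereas SA library 0 lay above all MA libraries and SA library 1 among them. The difference was 0.67 log2 units (0.11 to 1.22, unadjusted p = 0.0228 by limma).

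Cltc, the heavy chain, was at 41.2, 37.7, 36.6, 37.01, 32.9 and 37.3 FPKM in SA libraries 0 to 5 and 32.3, 36.1, 34.8, 31.3, 29.4 and 29.7 FPKM in MA libraries 0 to 5. Its spread was small, and 5 of the 6 SA libraries lay above all MA libraries (-0.20 log2 units, -0.39 to -0.01, unadjusted p = 0.0441 by limma). Ap2b1, the beta subunit of AP-2, was at 5.81, 6.16, 6.42, 8.28, 6.51 and 8.85 FPKM in SA libraries 0 to 5 and 5.18, 6.90, 5.93, 6.43, 6.00 and 5.10 FPKM in MA libraries 0 to 5. The groups overlapped, and the difference was -0.20 log2 units (unadjusted p = 0.113).

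Cltb was at 193, 443, 628, 493, 653 and 974 FPKM in SA libraries 0 to 5 and 387, 263, 323, 434, 416 and 288 FPKM in MA libraries 0 to 5. SA library 5 was highest and SA library 0 lowest of all 12, with the MA libraries between them. Clta was at 135, 212, 314, 264, 297 and 399 FPKM in SA libraries 0 to 5 and 229.9, 152, 203, 225, 232 and 168 FPKM in MA libraries 0 to 5, with the same libraries at its ends. The differences were -0.55 log2 units for Cltb (-1.22 to 0.13, unadjusted p = 0.102 by limma) and -0.36 for Clta (unadjusted p = 0.138), and Ap2s1, whose values ran from 187 in SA library 0 to 769 in SA library 5, was at -0.33 (unadjusted p = 0.311). Krt17, an outer root sheath keratin gene, was likewise lowest in SA library 0 (15044 FPKM) and highest in SA library 5 (52422). The 7 genes found of 10 listed for epidermis and outer root sheath summed to 21439 to 64882 FPKM in SA and 23199 to 44711 in MA libraries, and the 7 tested had a median of 0.02 log2 units. The 7 genes tested of 11 listed for the hair shaft were all above 0 in MA rats, with a median of 1.05 log2 units, 4 had an unadjusted p under 0.05 by limma, and 4 were called higher without SA library 0. The hair shaft genes summed to 15592 to 77481 FPKM in SA and 34138 to 74580 in MA libraries. The part of either list in the members' values was not tested.

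Nsf, the ATPase that takes SNARE complexes apart, was at 8.78, 1.59, 0.597, 0.985, 0.0962 and 0.967 FPKM in SA libraries 0 to 5 and 2.34, 3.40, 2.86, 1.96, 1.31 and 3.83 FPKM in MA libraries 0 to 5. SA library 0 stood apart at 8.78 FPKM, while the other 5 SA libraries reached at most 1.59 and the MA libraries ran from 1.31 to 3.83. The difference was 0.57 log2 units (-0.34 to 1.48, unadjusted p = 0.197 by limma).

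**Figure D5:**
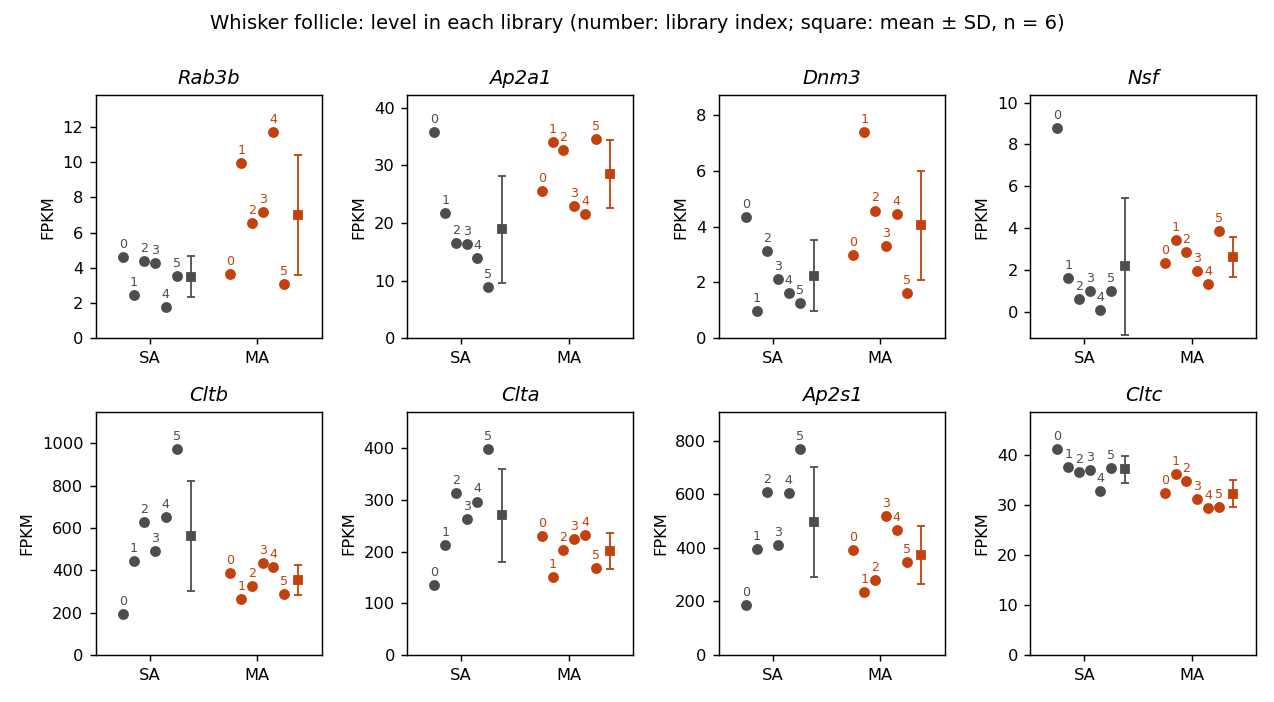
FPKM of 8 vesicle cycle genes in each whisker follicle library, with the library index beside each point and the mean ± SD of 6 libraries as a square with bars. SA library 0 is at the far end of the SA group in all 8 panels. For Cltc it is on the side away from the MA libraries, and for the other genes on their side or beyond them.

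The result in the follicle turned on SA library 0. Without it, 671 of 9059 rows were called higher in MA rats (7.41%) and 548 lower (6.05%) by limma, and of the 18 members then tested (Stx1a in place of Syt11) Ap2a1 and Nsf were called higher and Cltb lower. Ap2a1 was then at 0.87 log2 units (SE 0.20, adjusted p = 0.0203 by limma), Nsf at 0.98 (adjusted p = 0.0212) and Cltb at -0.83 (adjusted p = 0.0227). Nsf was low in these libraries, near the filter of 1 FPKM. It ran from 0.0962 to 1.59 FPKM in the SA libraries kept and from 1.31 to 3.83 in the MA libraries. Clta had an adjusted p of 0.0385 at -0.55 log2 units, under the fold of 1.5. Dnm3 (0.80), Rab3b (0.83) and Ap2s1 (-0.58 log2 units) had adjusted p of 0.052, 0.0595 and 0.0809. The 3 of 18 members called stand beside 1219 of 9059 rows, a share near that of all genes. The study named Ap2a1 from these same libraries, and all members, Cltb included, were chosen with earlier results of these data known. None of these calls is therefore independent evidence.

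Leaving out SA library 5 as well, which held the striatal transcripts, left Ap2a1 (0.70 log2 units, adjusted p = 0.0464 by limma) and Nsf (1.02, adjusted p = 0.0488) called, and Cltb at -0.66 (adjusted p = 0.0522) not called. All rows then gave 170 calls higher (1.87%) and 156 lower (1.72%) of 9078. With SA library 5 alone left out, no member was called and the lowest adjusted p of a member was 0.805. Weights that limma estimated for each library called the same 3 genes as leaving out SA library 0, with Ap2a1 at 0.73 (adjusted p = 0.0153) and Nsf at 0.96 log2 units (adjusted p = 0.0188) higher and Cltb at -0.72 lower (adjusted p = 0.0184). With these weights 692 of 9138 rows were higher (7.57%) and 468 lower (5.12%), and SA library 0 had the lowest weight of the 12. Of the other 2 exocytosis genes with a high level in the follicle, Vamp2 averaged 71.6 FPKM in SA rats and 70.7 in MA rats and Napa 103 and 94.7, and neither was called in any of these settings.

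Shares of paralogs were compared between treatments by the exact permutation test over the 12 libraries of a tissue, two-sided, with adjustment over the 19 pairs. In the follicle, 4 pairs had an unadjusted p under 0.05: Vamp2 made up 35.2% of the sum with Vamp3 in SA and 40.0% in MA rats (exact p = 0.0303), Ap2a2 30.1% and 19.7% of the sum with Ap2a1 (exact p = 0.026), Syngr1 35.0% and 22.7% of the sum with Syngr2 (exact p = 0.0325), and Vamp2 7.58% and 10.6% of the sum with Vamp8 (exact p = 0.0325). None passed after adjustment (0.154 each). Without SA library 0, Syngr1 to Syngr2, Vamp2 to Vamp8, Ap2a2 to Ap2a1 and Clta to Cltb passed (exact test, adjusted p = 0.0411 each). Ap2a1 is a gene the study named from these libraries. All pairs, Clta to Cltb included, were chosen with the levels known, so these results are not independent evidence. SA library 5 was kept in this test, and the Ap2a2 share was 50.6% there and averaged 26.0% in SA rats without it. In the striatum no pair passed, and the lowest unadjusted p was that of Ap2a2 to Ap2a1 (0.0498 by the exact test, 0.857 after adjustment).

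An interaction term over all 24 libraries compared the MA effect in the striatum with that in the follicle. None of the 18 members was called, beside 2 of 8212 rows (0.0244%) by limma, and 12.5% of rows had an unadjusted p under 0.05. Rab3b had the smallest p among the members: its MA effect was 1.09 log2 units lower in the striatum than in the follicle (difference -1.09, unadjusted p = 0.0164 by limma). Ap2a1 (-0.75, unadjusted p = 0.0234) and Dnm3 (-0.76, unadjusted p = 0.0374) were the others under 0.05, and the lowest adjusted p was 0.387. Without follicle SA library 0, 660 of 8139 rows were called higher (8.11%) and 533 lower (6.55%), and 4 members were called by limma. Ap2a1 was then at -0.95 (adjusted p = 0.0164), Nsf at -1.19 (adjusted p = 0.0205) and Dnm3 at -0.92 (adjusted p = 0.0458), and Cltb at 0.82 log2 units (adjusted p = 0.0177). Without SA library 5 in addition, Ap2a1, Nsf and Cltb were called and Dnm3 was not. The 2 tissues of a rat could not be paired in this test.

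Other genes of the cycle were taken from lists of the pathway and its relatives. In the striatum none of them was called between MA and SA rats. Among 36 other release genes, 33 were tested there, and Stxbp5, the syntaxin-binding tomosyn gene, had the smallest p (-0.23 log2 units, unadjusted p = 0.0516 by limma). Of 26 other endocytic genes, 24 were tested and 3 had an unadjusted p under 0.05, namely Epn1 (0.30 log2 units), Itsn1 (0.27) and Eps15l1 (-0.25). Of 18 genes of the vacuolar ATPase, which acidifies vesicles so that transmitter can enter, Atp6v0e1 had the smallest p (0.45 log2 units, unadjusted p = 0.0209 by limma). In the follicle none was called with all libraries. Without SA library 0, Stxbp5 (0.95 log2 units) and Rab27b (1.08) of 8 other release genes tested, Syngr2 (1.07 log2 units), Sypl1 (1.13) and Rab5a (1.28) of 4 other vesicle membrane genes tested, and Picalm (1.58), Clint1 (1.75) and Itsn1 (1.22) of 21 other endocytic genes, were called higher in MA rats. Of 18 ubiquitous SNARE and fusion genes tested, Stx3 and Ykt6 were called higher and Vamp8, Use1 and Stx8 lower, and of 17 vacuolar ATPase genes 3 were called higher and 1 lower. No gene of the related adaptors AP-1 and AP-3 was called among 12 tested, at a background of 1219 of 9059 rows.

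Between the tissues, counts of the lists stand beside 43.6% of all rows called higher in the striatum of SA rats and 31.5% lower. Of 33 other release genes, 31 were called higher in the striatum of SA rats and 1 lower, Rab3d (-2.24 log2 units), a GTPase of exocrine granules. Most of these entered the test through their striatum level. Of 20 ubiquitous SNARE and fusion genes, 5 were called higher in the striatum and 10 lower. Vamp8 was at 973 FPKM in the follicle and 24.1 in the striatum of SA rats (-5.18 log2 units), Stxbp2 was at -3.10 and Vamp3 at -1.87. The adaptor gene Ap1m2, an AP-1 subunit of epithelia, was at 39.7 and 0.226 FPKM. Of 18 vacuolar ATPase genes, 6 were called higher and 5 lower, no larger a share than among all rows, with Atp6v1g2 at 7.59 and Atp6v0e1 at -4.11 log2 units.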

How the data were processed

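RNA from the striatum and whisker follicles of SA and MA rats was sequenced (24 libraries, 6 per group). The authors deposited FPKM values in 1 table of 17711 rows, and no column was left out or lacked a sample. For alignment to rn6 the paper gives TopHat2 (after Cutadapt) and the submitters' processing notes STAR 2.6.0c (after bcl2fastq), with quantification by Cufflinks, version 2.2.1 in the notes. The sources used here give neither the annotation nor a scaling step. FPKM carries no read counts, so depth is unknown and no counting error can be given. It is scaled per library, so a few very abundant genes can shift all others.

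Columns were assigned to groups by their names. Their index of 0 to 5 is not tied to a rat number. The labels call the libraries biological replicates, each of 1 rat. The members and lists were chosen with earlier results of these data known. Arms were set by known function.

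Tests used limma 3.58.1 in R 4.3.3 (empirical Bayes, intensity trend, two-sided) on log2(FPKM + 1), with a pseudocount of 1. This scale understates changes of low genes. Rows needed a mean FPKM of at least 1 in the tissue (tissue comparison: in either tissue; interaction: in each). Benjamini-Hochberg adjustment ran over all rows tested, and a call needed 1.5-fold or more at an adjusted p under 0.05. Paralog shares were tested by exact permutation over the 924 assignments of 12 libraries. The code was tested on simulated data.

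The genes named are the members called or with the smallest p in a comparison (up to 8), Ap2a1 and Cltb, the largest and smallest tissue differences per arm, and up to 4 genes of each other list. Library 5 and the other single libraries named were singled out after their values were seen, as were Sv2b and the paralog pairs. Alternatives were pseudocounts of 0.1 and 0.5, no filter or a mean of at least 5, a common sum of 1000000, a common median, quantile normalization, no trend, library weights, adjusted p alone, and leaving out each library. Leaving out 3 pairs of libraries, and follicle SA library 5 from the paralog shares, was added after seeing the data. Promoters came from RefSeq (GRCr8).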

Additional observations from a re-analysis of the deposited data

Results flagged for a closer look

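In each group of 6 libraries, the highest and lowest values of a member were set against Dixon's 95% limit. Of 114 groups tested, 5 passed. Chance alone passes about 1 in 20, or 5.7 of these groups, so the count is no more than chance gives. In the striatum, SA library 4 was highest for Rab3b (105 FPKM, next 56.7) and for Syp (348 FPKM, next 231). This is 1 of the libraries with low Ppp1r1b and high Calb2. MA library 5, the other, was highest for Cltb (170.0 FPKM, next 146). In the whisker follicle, SA library 0 was highest for Nsf (8.78 FPKM, next 1.59) and lowest for Vamp1 (1.90 FPKM, next 2.78). It is the library whose removal changed the calls of Nsf, Ap2a1 and Cltb. With a count at the level of chance, no single flag shows that its library differed, and why the values stood apart was not tested.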

How the results depend on the processing

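No paired analysis was possible because the columns carry an index that is not tied to a rat number, so a replicate block could not be fitted. In the striatum no member was called under any setting run, and the rows called, 1 with all libraries, were 0 at a mean of at least 5, with a common sum and without MA libraries 3 and 4, 3 without SA library 4 and MA library 5, and 0 to 4 with each library left out. Ap2a1 turned to 0.0328 log2 units without MA libraries 3 and 4, and Cltb to 0.0157 there and to 0.0194 without SA library 4 and MA library 5. With each library left out they ran from -0.169 to 0.0002 and from -0.0529 to 0.0604.

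In the follicle, 2 members were called higher with library weights and without SA libraries 0 and 5, and 1 lower with weights. With each library left out these counts ran from 0 to 2 and from 0 to 1. Rows called were 0 with all libraries, 1160 with weights, 326 without SA libraries 0 and 5, and 0 to 1219 with each library left out. The clathrin and AP-2 median was -0.038 with a common sum.

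Between the tissues, 0 members were lower in SA rats with a common sum, and 0 in MA rats with a common sum or quantile normalization. The clathrin and AP-2 median, 0.90 in SA and 0.64 in MA rats, was 1.77 and 1.23 with quantile normalization, 0.43 and 0.22 with a common median, and 2.68 and 2.15 with a common sum. Calls higher and lower over all rows were 5014 and 3625 in SA rats as deposited, 9245 and 1392 with a common sum, 3850 and 4787 with a common median, and 3888 and 4246 with quantile normalization. In MA rats they were 4893 and 3551, 8889 and 1499, 3821 and 4649, and 3820 and 4215. Signs turned for Syngr1 with a common median (-0.0564 in SA, -0.18 in MA rats) and Ap2m1 (-0.063 in MA rats), for Clta with quantile normalization (0.11 and 0.14) and a common sum (0.93 and 1.02), and with a common sum for Ap2s1 (0.10 and 0.22) and Cltb (0.0087 and 0.29).

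For the interaction, weights and leaving out follicle SA libraries 0 and 5 each called 1 member higher and 2 lower. With each library left out the counts were 0 to 1 and 0 to 3. Rows called, 2 with all libraries, were 1 at a mean of at least 5, with a common sum, without striatum MA libraries 3 and 4, and without striatum SA library 4 and MA library 5, 1245 with weights, 689 without follicle SA libraries 0 and 5, and 1 to 1193 with each library left out. The exocytosis median, -0.12, was -0.29 with a common sum, and the clathrin and AP-2 median, 0.24, was 0.0248 with quantile normalization and -0.0076 with a common sum, where Cltc turned to -0.0751 and the median of all rows from 0.02 to -0.22. Apart from what scaling builds in, the cause of these changes was not tested.

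Depth is unknown, so low values cannot be told from 0 with a stated error.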
